A study of Mus musculus with 6 samples.

Results

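The tubulin isotypes are the genes that encode the α- and β-tubulin subunits of microtubules. The 10 taken here were chosen by symbol from the 17975 genes of the table: 4 α-tubulin genes (Tuba1a, Tuba1b, Tuba1c and Tuba4a) and 6 β-tubulin genes (Tubb2a, Tubb2b, Tubb3, Tubb4b, Tubb5 and Tubb6). All 10 were present in the table, and 9 had enough reads to be tested. RNA was sequenced from the whole liver of 3 Hom mice and of 3 wild-type mice, 1 liver per mouse. Hom mice carry floxed Nek7 alleles and an albumin-promoter Cre (NEK7 fl/fl-Alb-Cre+), which deletes Nek7 in hepatocytes and not by design in the other cells of the liver. The controls (WT) were labelled wild type, and whether they carried the floxed alleles or the Cre is not given in the sources used here. The labels give no treatment for either group, and no age that the study gives for its mice is tied to the sequenced livers.

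The deposited values were estimated read counts, which summed to between 19349418 and 19730236 per liver. Composition factors (TMM, which rescale libraries so that most genes do not shift) were 0.81 to 0.92 in the WT group and 1.09 to 1.23 in the Hom group. Nek7 itself, a kinase of the NIMA family with roles at the mitotic spindle and in the inflammasome, was at 62.9, 69.1 and 63.7 TMM-scaled CPM (read counts per library, scaled to a fixed total) in WT replicates 1 to 3 and at 14.5, 18.1 and 16.7 in Hom replicates 1 to 3, a difference of −1.99 on the log2 scale (SE 0.10, adjusted p = 1.59e-04). Throughout, adjusted p-values come from edgeR (quasi-likelihood test; Benjamini-Hochberg over 13805 genes, threshold 0.05), log2FC is the log2 fold change of Hom against WT, and SE is its standard error. Hom replicate 1 stood apart from the other livers on Y-linked genes: Ddx3y and Kdm5d, on the Y chromosome, had 0 counts there and at least 243 in each other liver, while Uty had 149 counts there and at least 464 elsewhere. The labels do not give the sex of the mice. Hom replicate 1 was also the highest liver for Tuba1c, Tubb6 and Tuba8, described with their values. Values without this liver are given where they move a result.

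Microtubules are hollow polymers of α/β-tubulin dimers that carry vesicles and organelles, build the mitotic spindle and form the core of cilia. Vertebrates encode each subunit in several genes, the isotypes, whose products differ mainly in their C-terminal tails and which cell types use in different proportions. In hepatocytes microtubules serve secretion and transport to the canalicular membrane, and cells also sense the pool of free tubulin: when it rises, the factor TTC5 binds the first residues of newly made tubulin on the ribosome and the mRNA is degraded. The stretch that TTC5 binds is encoded by the first codons, so these are shown for 9 of the 10 isotypes. Each line gives the first 30 coding bases, 5′ to 3′, of the principal isoform (GENCODE M21, GRCm38), with the first 12 bases in capitals.

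Tuba1a: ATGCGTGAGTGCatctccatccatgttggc
Tuba1b: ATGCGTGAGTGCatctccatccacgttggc
Tuba1c: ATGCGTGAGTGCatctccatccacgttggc
Tuba4a: ATGCGCGAGTGCatttcagtccatgtgggg
Tubb2a: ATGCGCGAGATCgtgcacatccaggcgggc
Tubb2b: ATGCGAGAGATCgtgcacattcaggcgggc
Tubb3: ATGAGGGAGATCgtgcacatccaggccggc
Tubb4b: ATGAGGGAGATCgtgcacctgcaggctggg
Tubb5: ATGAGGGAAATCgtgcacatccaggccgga

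The first 12 bases were the same in Tuba1a, Tuba1b and Tuba1c, and the same in Tubb3 and Tubb4b. Every isotype had 4 exons in its principal transcript and a coding sequence of 1332 to 1353 bases. Tuba1a (NCBI Gene 22142), Tuba1b (22143) and Tuba1c (22146) lie together on chromosome 15 in GRCm38, at 98949837-98953703 (minus strand), 98931425-98934565 (minus strand) and 99029891-99038110 (plus strand). Their coding sequences were identical at 97.55% to 98.37% of aligned bases, and each was identical to Tuba4a (chromosome 1, 75214228-75219865, minus strand) at 85.3% to 85.6%. Tubb2a (chromosome 13, 34074274-34078007, minus strand) and Tubb2b (34126748-34130466, minus strand) were identical at 96.5%, whereas every other pair of β-tubulin genes was identical at 80.8% to 86.6%. Tubb3 lies on chromosome 8 (123411424-123422015, plus strand), Tubb4b on chromosome 2 (25222160-25224702, minus strand) and Tubb5 on chromosome 17 (35833921-35838306, minus strand).

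This likeness bears on the counting. Of the 100-base windows of the principal transcript, 38.4% in Tuba1a, 52.3% in Tuba1b, 53.4% in Tuba1c, 35.9% in Tubb2a and 26.1% in Tubb2b occurred unchanged in another of the 10 isotypes, and 0% in Tuba4a, Tubb3, Tubb4b, Tubb5 and Tubb6. Counted against any other annotated gene, the shares were 65.1% in Tuba1a, 69.5% in Tuba1b, 53.4% in Tuba1c, 36.9% in Tubb2a, 27.8% in Tubb2b and 29.2% in Tubb4b, and 0% in Tuba4a, Tubb3, Tubb5 and Tubb6. Values of single genes within the Tuba1 group and within the Tubb2 pair are therefore uncertain as to how reads were split, and their sums, given beside them, remove the split within the group but not that with other genes.

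Of the 9 tested isotypes, 3 were higher in Hom livers (Tuba1a, Tubb2b and Tubb6), 3 were lower (Tuba4a, Tubb2a and Tubb4b) and 3 did not pass the threshold (Tuba1b, Tuba1c and Tubb5). Tubb2b, with 5, 2 and 13 counts in WT livers, reached the test only through the Hom group, where it was high. A filter of at least 10 counts in every liver dropped it and left 2 isotypes higher. Among all tested genes, 21.5% were higher and 20.1% were lower, so that the isotypes moved in both directions on a background in which change was common. The groups did not overlap for the same 3 higher and 3 lower isotypes, where 28.7% of all genes lay wholly higher and 27.0% wholly lower in Hom livers. The median log2FC of the 9 isotypes was 0.16, against −0.0018 for all genes. Their values ranged from −1.32 (Tuba4a) to 3.01 (Tubb2b). All 6 calls kept their direction and stayed past the threshold when any 1 of the 6 livers was left out. Without TMM factors, 47.6% of all genes were higher and 4.65% lower, the median of all genes was 0.45, and 5 isotypes were higher (Tuba1b and Tuba1c were added) and 1, Tuba4a, was lower.

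**Figure D1:**
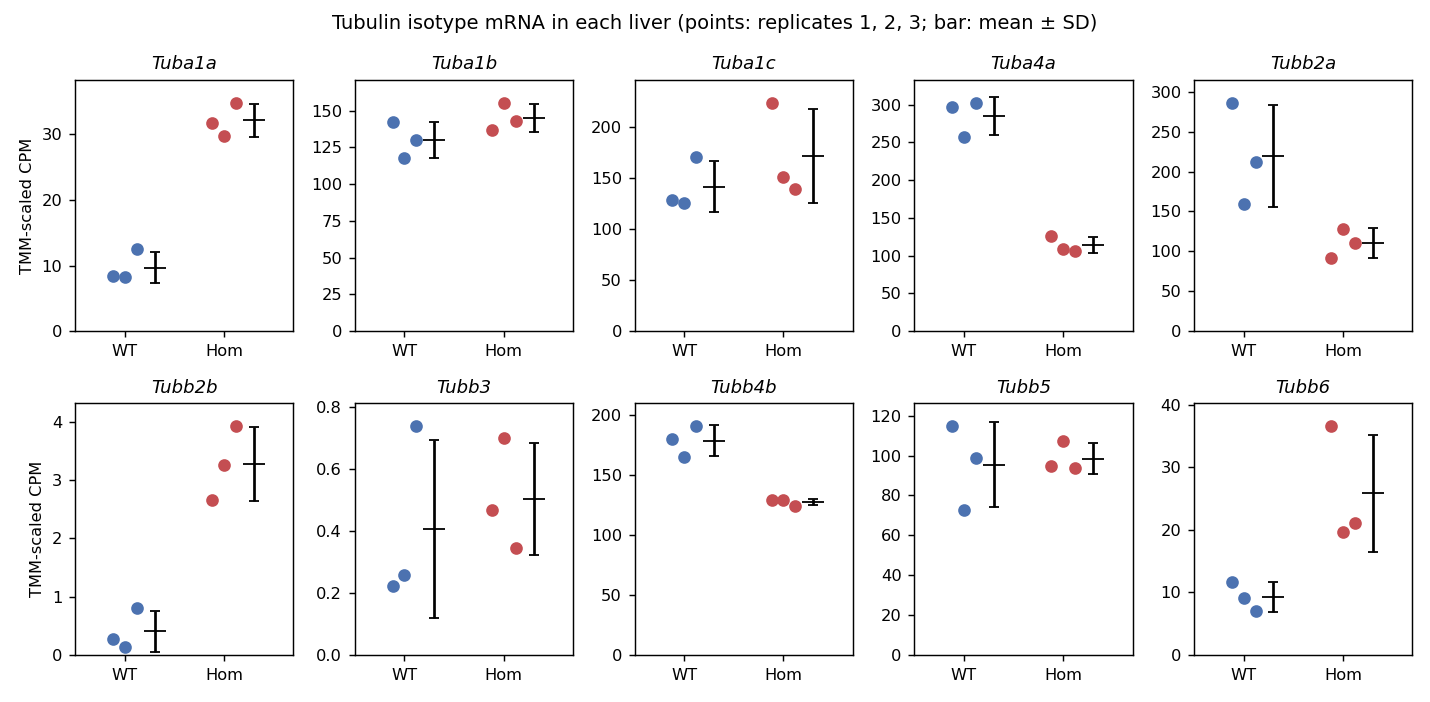
Each panel plots TMM-scaled CPM of 1 tubulin isotype on a linear axis from 0, with a point for each of 3 WT (blue) and 3 Hom (red) livers in the order of replicates 1, 2 and 3, and a bar for mean ± SD. The groups are apart for Tuba1a, Tubb2b and Tubb6 (Hom higher) and for Tuba4a, Tubb2a and Tubb4b (Hom lower), and they overlap in the other 4 panels.

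**Figure D2:**
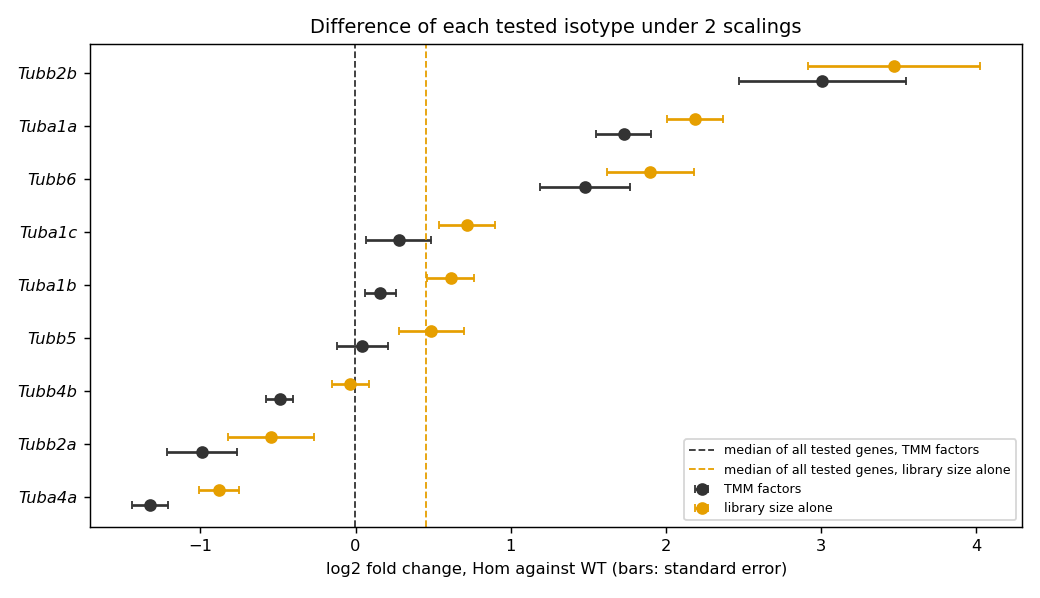
Points give the log2FC of Hom against WT, and bars its standard error, for the 9 tested isotypes, with TMM factors (black) and with library size alone (orange). Dashed lines mark the median of all tested genes under each scaling, −0.0018 and 0.45. Tubb4b lies at −0.49 with TMM factors and at −0.03 without them.

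Levels of different genes were compared on the TPM scale, which divides by transcript length. In WT livers Tubb2a (mean 207 TPM), Tuba4a (200.3), Tubb4b (167), Tuba1b (124) and Tuba1c (105) were the most abundant isotypes, and the ranges of neighbours in this order overlapped. Tubb5 (53.8 TPM) stood apart from its neighbours on both sides. Tuba1a (8.98) and Tubb6 (7.997) overlapped each other, and Tubb3 (0.337) and Tubb2b (0.290) were lowest. In Hom livers the order was Tuba1b (213 TPM), Tuba1c (195), Tubb4b (182), Tubb2a (158) and Tuba4a (122), with overlapping neighbours, then Tubb5 (84.3), apart from both neighbours, Tuba1a (46.1) and Tubb6 (33.2), which overlapped each other, Tubb2b (3.91) and Tubb3 (0.660). Tuba4a thus stood near the head of the order in WT livers and behind all 4 of these other genes in Hom livers. TPM values are shares of all transcripts in a library, so their levels were not compared between groups gene by gene.

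Among the α-tubulin genes, Tuba4a, which unlike most α-tubulin genes does not encode the C-terminal tyrosine, was at 297, 256 and 303 TMM-scaled CPM in WT replicates 1 to 3 and at 127, 109 and 107 in Hom replicates 1 to 3. Every Hom liver lay under every WT liver. Its log2FC was −1.32 (SE 0.11, adjusted p = 4.98e-04), which left 39.9% of the WT mean. With library size alone it was −0.88 (adjusted p = 0.00184), and it passed the threshold under all 15 alternatives, with adjusted p-values up to 0.00417.

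Tuba1a, the main α-tubulin of developing neurons, was at 8.38, 8.21 and 12.5 TMM-scaled CPM in WT livers and at 31.7, 29.8 and 34.8 in Hom livers. The Hom livers lay close together and well over the highest WT liver. Hom livers differed from WT livers by a log2FC of 1.73 (SE 0.18, adjusted p = 7.91e-04), a 3.31-fold higher mean.

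Tuba1b, a broadly expressed α-tubulin gene, was at 142, 118 and 130 TMM-scaled CPM in WT livers and at 137, 155 and 143 in Hom livers, with overlapping groups and a log2FC of 0.16 (SE 0.10, adjusted p = 0.239). Tuba1c, a further broadly expressed α-tubulin gene, was at 128, 125 and 170 in WT livers and at 223, 151 and 139 in Hom livers. Only Hom replicate 1 lay over the WT range. The log2FC of Tuba1c was 0.28 (SE 0.21, adjusted p = 0.316), and 0.04 without Hom replicate 1. With library size alone both genes passed the threshold, Tuba1b at 0.61 (adjusted p = 0.0138) and Tuba1c at 0.72 (adjusted p = 0.0145), against the median of 0.45 for all genes on that scale. Tuba1b also passed with the gene length correction, at 0.29 (adjusted p = 0.0450), which gave 4 higher isotypes. Over all alternatives the adjusted p ran from 0.0138 to 0.546 for Tuba1b and from 0.0145 to 0.859 for Tuba1c.

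The counts of Tuba1a, Tuba1b and Tuba1c, whose reads are the hardest to tell apart, summed to 4993, 3916 and 5081 in the WT group and to 8395, 8159 and 7360 in the Hom group, before scaling. Tested as 1 gene, their sum had a log2FC of 0.31 (SE 0.13, adjusted p = 0.0933). Tuba1a held 150, 128 and 203 of these counts in WT livers and 679, 723 and 808 in Hom livers, so that the sum mostly follows Tuba1b and Tuba1c and does not bear on how reads were assigned to Tuba1a.

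Among the abundant β-tubulin genes, Tubb2a, a class II β-tubulin, was at 286, 160 and 212 TMM-scaled CPM in WT livers and at 91.7, 128 and 111 in Hom livers. WT replicate 1 was the highest liver, and no Hom liver reached the lowest WT liver. Its log2FC was −0.99 (SE 0.23, adjusted p = 0.0134). With library size alone it was −0.54 and did not pass the threshold (adjusted p = 0.135), and with the replicate block and a gene length correction together it was −0.83 (adjusted p = 0.0596), within a range of 9.92e-05 to 0.135 over all alternatives. WT replicate 1 also had the highest summed level of the neutrophil markers, 88.8 CPM against 2.95 and 6.57 in the other WT livers, and of the macrophage markers, 496 CPM against 222 and 190. The call for Tubb2a remained without WT replicate 1, and a relation of Tubb2a to these markers was not tested.

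Tubb4b, a class IV β-tubulin found in most tissues and in cilia, was at 181, 165 and 191 TMM-scaled CPM in WT livers and at 129, 129 and 124 in Hom livers. The groups were apart and the Hom livers nearly level. This gave a log2FC of −0.49 (SE 0.087, adjusted p = 0.00553), but −0.03 with library size alone (adjusted p = 0.82, the highest of its alternatives, whose lowest was 4.51e-06). Whether Tubb4b was lower or level therefore depended on the scaling.

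Tubb5, the class I β-tubulin of most cells, was at 115, 72.8 and 99.0 TMM-scaled CPM in WT livers and at 94.6, 107 and 93.5 in Hom livers. The Hom values lay within the WT range. Its log2FC was 0.05 (SE 0.17, adjusted p = 0.846), and it changed sign without WT replicate 2 (−0.12) and without Hom replicate 2 (−0.02).

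The remaining β-tubulin genes were at low levels in WT livers. Tubb6, a class V β-tubulin, was at 11.6, 9.17 and 6.94 TMM-scaled CPM in WT livers and at 36.5, 19.7 and 21.2 in Hom livers, with Hom replicate 1 far over the other Hom livers. The test gave a log2FC of 1.48 (SE 0.29, adjusted p = 0.00766), and 1.14 without Hom replicate 1. Tubb6 passed the threshold under all 15 alternatives.

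Tubb2b, a class II β-tubulin best known from developing brain, had 5, 2 and 13 counts in WT livers and 57, 79 and 91 in Hom livers. On the TMM-scaled CPM scale these were 0.279, 0.128 and 0.799 against 2.66, 3.26 and 3.92, and the groups did not overlap. Its log2FC was 3.01 (SE 0.54), with a range of 2.60 to 3.94 when each liver was left out in turn, with few reads on the WT side. Tubb2b passed the filter on low counts only through the Hom group, where it was high, so no p is given for it. A filter of at least 10 counts in every liver dropped it and left 2 isotypes higher. With Tubb2a, its near-identical neighbour, it summed to 5134, 2491 and 3458 counts in the WT group and to 2021, 3193 and 2665 in the Hom group, and the sum had a log2FC of −0.95 (SE 0.23, adjusted p = 0.0154). The sum followed Tubb2a, which held nearly all of its reads.

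Tubb3, the class III β-tubulin used as a neuronal marker, had 4, 4 and 12 counts in WT livers and 10, 17 and 8 in Hom livers. It was kept out of the test by the filter on low counts. Its levels overlapped between groups, and no test of a difference was made.

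Shares within the α- and the β-tubulin pools do not change with the scaling of a library, because each share is a ratio of genes in 1 liver. Of the summed TPM of the 4 α-tubulin genes, Tuba4a made up 46.5%, 45.6% and 44.7% in WT replicates 1 to 3 and 21.3%, 20.8% and 21.5% in Hom replicates 1 to 3. These were 45.6% ± 0.914 (SD, n = 3) and 21.2% ± 0.349 (SD, n = 3), a difference of −24.4 percentage points that is many times the spread in either group. Tuba1a went from 2.05% ± 0.370 to 8.05% ± 1.17 of the pool in group means, Tuba1b went from 28.3% ± 2.11 to 37.0% ± 4.98 and Tuba1c from 24.1% ± 2.66 to 33.7% ± 5.67, each with no overlap between groups. Shares add up to the whole pool, so a lower share of Tuba4a raises the others and the 4 shares are not separate changes. The TMM-scaled CPM of Tuba1b and Tuba1c did not differ past the threshold. In an exact two-sided permutation test each of the 4 shares gave p = 0.1, the smallest p that 3 livers against 3 can give, so no share could pass 0.05. After Benjamini-Hochberg adjustment over the 11 pool comparisons this was 0.122.

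In the β-tubulin pool Tubb2a made up 52.3%, 42.2% and 44.98% in WT livers and 29.1%, 37.3% and 35.2% in Hom livers. Tubb5 made up 12.6%, 11.6% and 12.6% in WT livers and 18.0%, 18.7% and 17.8% in Hom livers, a tight separation although its TMM-scaled CPM did not differ past the threshold. Here too a lower share of Tubb2a leaves more of the pool to other isotypes, so a higher share need not be a higher level. Tubb6 went from 1.84% ± 0.446 to 7.37% ± 2.90 and Tubb2b from 0.0672% ± 0.0608 to 0.843% ± 0.178. The groups did not overlap for these 4 shares (exact permutation p = 0.1 and adjusted p = 0.122 for each). Tubb4b held 33.1%, 43.9% and 40.8% of the pool in WT livers and 41.3%, 37.7% and 39.7% in Hom livers, which overlapped (exact permutation p = 0.9, adjusted 0.9), and Tubb3 held 0.0813% ± 0.0557 and 0.141% ± 0.0426 (exact permutation p = 0.3, adjusted 0.33).

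**Figure D3:**
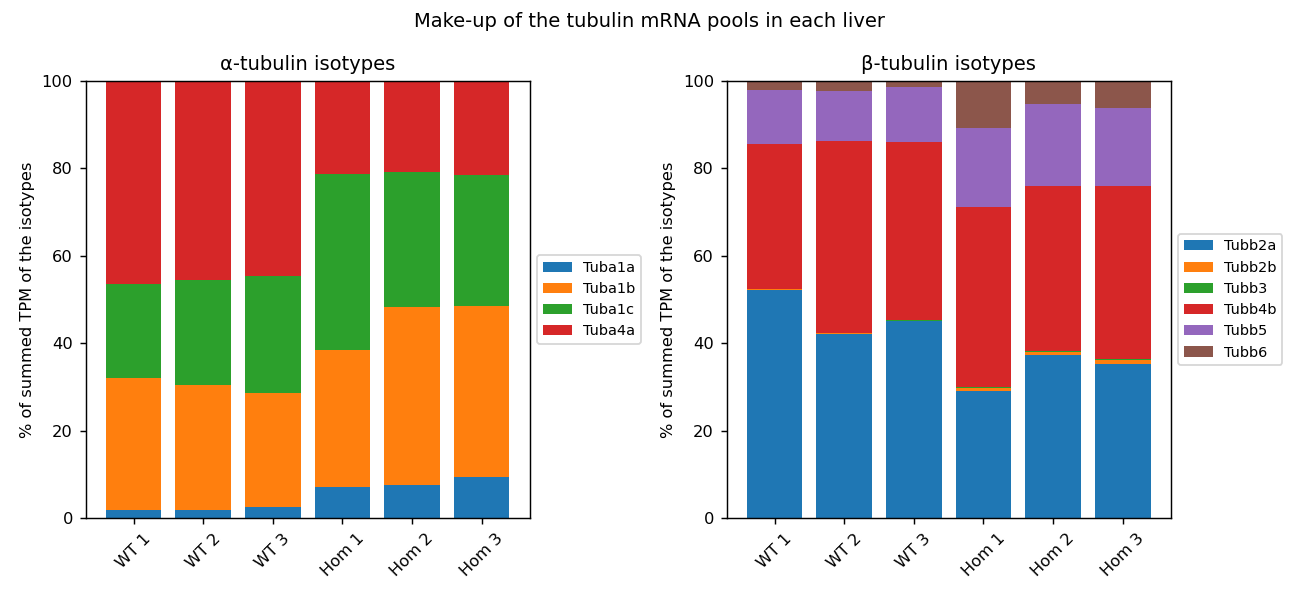
Stacked bars give, for each of the 6 livers, the percentage of the summed TPM of the 4 α-tubulin genes (left) and of the 6 β-tubulin genes (right) that each isotype made up. Tuba4a takes 44.7% to 46.5% of the α-tubulin pool in the WT bars and 20.8% to 21.5% in the Hom bars, and Tubb4b takes 33.1% to 43.9% of the β-tubulin pool over all 6 livers.

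The summed TPM of the β-tubulin genes was 1.13, 0.893 and 0.918 times that of the α-tubulin genes in WT livers and 0.701, 0.873 and 0.839 times in Hom livers (exact permutation p = 0.1, adjusted 0.122). The groups were apart by little, since WT replicate 2 lay close over Hom replicate 2. The difference of the group means was −0.18, and it was −0.10 without WT replicate 1 and −0.09 from estimated counts. The α-tubulin genes summed to 439 ± 70.8 TPM in WT and 576 ± 25.8 in Hom livers and the β-tubulin genes to 436 ± 126 and 463 ± 53.3 (SD, n = 3 each). On the TMM-scaled CPM scale the means of both sums were instead lower in Hom livers, 566 against 462 for α-tubulin and 504 against 366 for β-tubulin. In TPM the exact permutation p was 0.1 for the α-tubulin sum, 0.8 for the β-tubulin sum and 0.3 for all 10 isotypes. The 2 scales differ both in library scaling and in the division by transcript length. The direction of these means therefore depended on the scale used, and shares within a pool are free of the library scaling only.

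The RNA came from whole liver, in which fewer cells of a type and less RNA per cell cannot be told apart. Markers of liver cell types were counted in the same comparison. Beside these counts, 21.5% of all tested genes were higher and 20.1% lower with TMM factors. With library size alone these shares were 47.6% and 4.65%. Of 11 cholangiocyte markers, 10 were higher in Hom livers, with summed levels of 72.4 to 106 TMM-scaled CPM in WT and 685 to 926 in Hom ones. Of 13 stellate cell and fibroblast markers, 7 were higher and 1 lower, with 387 to 453 CPM against 795 to 901. Of 16 proliferation genes, 14 were higher, with 16.4 to 26.9 CPM against 41.9 to 89.4, and of 15 hepatocyte markers, 9 were lower and 0 higher. With library size alone 5 hepatocyte markers were lower and 2 higher, and 3 endothelial markers were lower and 2 higher. With TMM factors, endothelial markers were lower in 5 of 9, macrophage markers higher in 3 and lower in 2 of 11, and lymphocyte markers higher in 1 of 6, while 0 of 4 neutrophil markers passed the threshold. Of the neuron and glia markers 1 of 4 was lower, and of the platelet markers 1 of 3 was higher. The defining hepatocyte, cholangiocyte, stellate, macrophage and endothelial markers were all detected. Their part in the differences of the isotypes was not tested.

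As single examples, Alb (albumin) had a log2FC of −1.26 (SE 0.27, adjusted p = 0.00991), which did not pass the threshold without Hom replicate 3 (adjusted p = 0.0639), within 6.60e-13 to 0.0648 over all alternatives. Mki67, a marker of cycling cells, had 2.04 (SE 0.49, adjusted p = 0.0155), and 0.0532 without Hom replicate 2 and 0.0519 without Hom replicate 3, within 8.70e-05 to 0.0608 over all alternatives.

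Of the other tubulin genes, 6 of the 9 in the table were tested, of which 2 were higher and 1 was lower with TMM factors and 2 were higher and 0 lower with library size alone. The higher genes were Tuba8 and Tubg2. Tubg2 had 5, 4 and 2 counts in WT livers and 16, 12 and 18 in Hom livers, and reached the filter only through the Hom group. For this and the following lists, the share of all tested genes was 21.5% higher and 20.1% lower with TMM factors and 47.6% higher and 4.65% lower with library size alone, where the median of all genes was 0.45. Tuba8, an α-tubulin gene expressed in muscle, testis and a few other tissues, was at 6.31, 1.35 and 4.73 TMM-scaled CPM in WT livers and at 44.8, 14.6 and 15.6 in Hom livers. Hom replicate 1 was the highest liver, as it was for Tuba1c and Tubb6. This gave a log2FC of 2.58 (SE 0.63, adjusted p = 0.0171), and 1.86 without Hom replicate 1. Tubg1, the γ-tubulin that nucleates microtubules, was at 37.6, 38.1 and 39.6 CPM in WT and 34.3, 24.2 and 28.2 in Hom livers, a log2FC of −0.41 (SE 0.13, adjusted p = 0.0393). It was 0.03 with library size alone (adjusted p = 0.807), and did not pass without WT replicate 1, 2 or 3 or Hom replicate 2 or 3 (adjusted p = 0.0643, 0.0917, 0.0937, 0.0941 and 0.110), within a range of 0.00908 to 0.807 over all alternatives.

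Most genes of the machinery that folds tubulin did not pass the threshold. Of 21 tested genes for the chaperonin CCT, prefoldin and the tubulin cofactors, 2 were higher and 4 lower, with a median log2FC of −0.11, and 8 were higher and 0 lower with library size alone, with a median of 0.35. The largest past the threshold were Pfdn6, a prefoldin subunit, at −0.51 (SE 0.088, adjusted p = 0.00479) and Vbp1, another prefoldin subunit, at 0.43 (SE 0.14, adjusted p = 0.0451). Pfdn6 was −0.06 with library size alone (adjusted p = 0.678, against a lowest of 4.17e-04 over all alternatives). Vbp1 did not pass without WT replicate 2 or 3 or Hom replicate 2 or 3 (adjusted p = 0.124, 0.119, 0.128 and 0.143, within 0.00852 to 0.143 over all alternatives).

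Of the 3 genes known from tubulin mRNA autoregulation, Ttc5, which encodes the factor that binds the first residues of new tubulin chains, was higher and Scaper and Cnot11 did not pass the threshold (2 higher and 0 lower with library size alone). Ttc5 was at 6.48, 7.06 and 7.31 TMM-scaled CPM in WT livers and at 10.8, 9.81 and 8.71 in Hom livers. Its log2FC was 0.49 (SE 0.14, adjusted p = 0.0259), and it did not pass without WT replicate 1 or 2 or Hom replicate 1 or 2 (adjusted p = 0.0553, 0.0671, 0.0671 and 0.0728, within 0.00205 to 0.0728 over all alternatives). In the γ-tubulin ring complex, the template on which microtubules start, 0 of 8 genes were higher and 1 was lower with TMM factors (median 0.03), and 6 were higher and 0 lower with library size alone (median 0.49). The lower gene was Mzt2, a small subunit, at −0.54 (SE 0.17, adjusted p = 0.0439), which was −0.07 with library size alone (adjusted p = 0.80) and did not pass without WT replicate 2 or 3 or Hom replicate 1, 2 or 3 (adjusted p = 0.117, 0.1035, 0.0761, 0.0515 and 0.0920), within 0.0350 to 0.80 over all alternatives.

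Of 19 tested genes for enzymes that modify tubulin, 4 were higher and 2 lower, and the median was 0.05, while with library size alone 10 were higher and 0 lower (median 0.52). Of the 4 higher genes, all but Agbl5 (Ttll6, Ttll10 and Agbl2) had few reads in WT livers. These reached the filter only through the Hom group, where they were high, so the count rests largely on them. Atat1, the acetyltransferase of α-tubulin, was at 40.9, 34.2 and 37.7 TMM-scaled CPM in WT livers and at 21.2, 23.3 and 24.8 in Hom livers, with no overlap and a log2FC of −0.70 (SE 0.10, adjusted p = 0.00241). With library size alone it was −0.25 (adjusted p = 0.199, against a lowest of 2.38e-06 over all alternatives). Agbl5, a deglutamylase, had 0.50 (SE 0.14, adjusted p = 0.0281) and did not pass without WT replicate 3 or Hom replicate 2 or 3 (adjusted p = 0.0601, 0.0923 and 0.0753, within 0.00455 to 0.0923 over all alternatives).

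Of 25 tested microtubule binding proteins, 7 were higher and 2 lower, with a median of 0.16, and 15 were higher and 0 lower with library size alone (median 0.61). Stmn1, stathmin, which sequesters tubulin dimers, was at 6.03, 4.55 and 5.10 TMM-scaled CPM in WT livers and at 14.9, 18.5 and 16.6 in Hom livers. The groups were far apart, with a log2FC of 1.67 (SE 0.15, adjusted p = 5.75e-04), which passed under all 15 alternatives. Map1b, a microtubule-associated protein best known from neurons, had 9, 4 and 15 counts in WT and 48, 47 and 60 in Hom livers. It is among the 7 higher genes but reached the filter only through the Hom group, so no fold change or p is given for it. A filter of at least 10 counts in every liver dropped it.

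Of 22 tested motor genes, 4 were higher and 4 lower, with a median of 0.03, and 15 were higher and 0 lower with library size alone (median 0.49). Kif3a, a motor subunit of kinesin-2, which runs along ciliary and cytoplasmic microtubules, was at 4.13, 5.45 and 3.75 TMM-scaled CPM in WT and 7.56, 8.74 and 9.66 in Hom livers, a log2FC of 0.96 (SE 0.19, adjusted p = 0.00795). Kif3b, its partner, was at 12.5, 16.0 and 13.6 CPM in WT and 27.5, 21.2 and 22.8 in Hom livers, a log2FC of 0.77 (SE 0.14, adjusted p = 0.00617). Neither gene overlapped between groups, and both passed under all 15 alternatives.

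Genes for the other cytoskeletal filaments were mostly higher in Hom livers. Of 11 genes for actins and intermediate filaments, 7 were higher and 0 lower, and the median log2FC was 1.51 (9, 0 and 1.94 with library size alone). Krt19, a keratin of bile duct cells, was at 2.46, 2.24 and 0.922 TMM-scaled CPM in WT livers and at 17.7, 15.1 and 21.5 in Hom livers, a log2FC of 3.26 (SE 0.33, adjusted p = 8.06e-04). Krt7, another bile duct keratin, had 2.63 (SE 0.20, adjusted p = 3.69e-04). Both are also in the cholangiocyte marker list above.

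**Figure D4:**
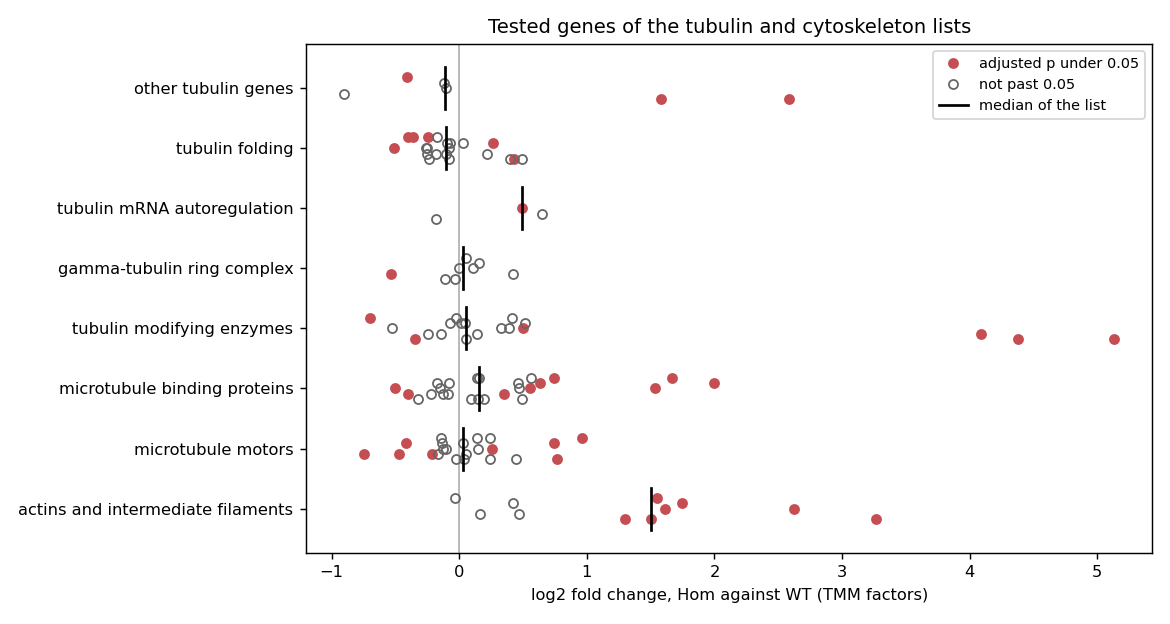
Each point is a tested gene, placed by its log2FC of Hom against WT (TMM factors), in 8 hand-written lists. Filled red points are past an adjusted p of 0.05, open points are not, and black bars are list medians, which lie between −0.11 and 0.49 for the 7 tubulin lists and at 1.51 for actins and intermediate filaments. Among the filled points, Ttll6, Ttll10, Agbl2, Tubg2 and Map1b reached the test through the Hom group, where they were high.

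The 250 bases before the annotated start were read for 8 isotypes with an entry in the RefSeq promoter table (GRCm38.p6), and 6 short motifs were searched on both strands. Motifs may overlap one another. The GC box GGGCGG was in 6 of the 8 windows and in 32.7% of all 32851 windows of this length. The CCAAT box CCAAT was in 5 (33.8% of all), the TATA box TATAAA in 1 (12.4%), the cell cycle element TTTGAA in 1 (16.0%), the TEAD motif GGAATG in 1 (12.6%) and the AP-1 motif TGANTCA in 0 (6.75%). Windows of the β-tubulin genes Tubb2a and Tubb4b, which were both lower with TMM factors, are printed with every match in capitals, 5′ to 3′ on the minus strand, because these letters differ while the direction of change was the same. The first is chr13:34078009-34078258 and the second chr2:25224703-25224952.

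Tubb2a: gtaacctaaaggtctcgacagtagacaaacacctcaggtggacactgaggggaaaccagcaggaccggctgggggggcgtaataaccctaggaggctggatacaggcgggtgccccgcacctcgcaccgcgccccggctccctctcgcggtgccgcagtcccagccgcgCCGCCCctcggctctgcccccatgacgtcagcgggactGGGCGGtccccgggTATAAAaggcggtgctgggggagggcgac
Tubb4b: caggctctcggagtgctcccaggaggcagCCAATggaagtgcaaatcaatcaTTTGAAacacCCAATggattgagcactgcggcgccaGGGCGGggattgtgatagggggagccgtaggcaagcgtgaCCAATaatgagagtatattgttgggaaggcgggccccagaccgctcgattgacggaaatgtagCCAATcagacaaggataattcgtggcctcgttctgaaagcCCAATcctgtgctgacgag

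The Tubb2a window held 1 TATA box, which begins 29 bases before the start, 2 GC boxes and 0 CCAAT boxes. The Tubb4b window held 0 TATA boxes, 1 GC box, 1 cell cycle element and 5 CCAAT boxes. A match is a stretch of letters and not a measured binding site.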

How the data were processed

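RNA was extracted with Trizol from snap-frozen liver and sequenced on the DNBSEQ platform. The submitters' processing notes name HISAT2 2.0.4, Bowtie2 2.2.5, RSEM 1.2.12 and mm9, without roles; strandedness and read length are not given in the sources used here. The authors deposited estimated counts, not scaled between livers, beside FPKM and TPM, which divide them by gene length and library size. The deposited mean columns have crossed names for all 17975 genes (tolerance 0.01) and were not used.

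Counts were rounded and fitted in R 4.3.3 with edgeR 4.0.16 (filterByExpr, TMM, glmQLFit and glmQLFTest, 3 Hom against 3 WT livers, no covariate); standard errors were computed as the absolute log2FC over the square root of F. Shares used TPM, with exact permutation tests over livers. Intervals over genes were not made, and precision is limited both by few counts and by the spread between livers. Alternatives were DESeq2 1.42.0, other scalings and filters, a replicate block, a loess length correction, each liver left out, and near-identical genes summed. The isotypes and lists were chosen with earlier results of these data known. Named were all isotypes, Nek7, Alb, Mki67 and, per list, the 2 largest changes past the threshold at a mean of at least 1 CPM. Tubg2, Ttll6, Ttll10 and Agbl2 were also named, for how they reached the filter. Sequences are from GENCODE M21 (GRCm38) and RefSeq (GRCm38.p6), not the authors' build; 1 isotype is not shown as sequence. Livers are separate mice.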

Additional observations from a re-analysis of the deposited data

How the results depend on the processing

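The limits are the small groups, the scaling and reads shared between near-identical genes. Over 26 single genes and 383 comparisons with an alternative, 328 kept direction and side of the threshold, 49 no longer passed, 3 passed newly and 3 changed sign; for the 9 tested isotypes these were 121, 3, 3 and 2 of 129. Library size alone gave 642 lower and 6574 higher genes, 1 lower and 5 higher isotypes, an isotype median of 0.61, and Tubg1 at 0.034. Summing near-identical genes left 1 isotype higher and a median of −0.22. The median was 0.29 with the gene length correction and 0.30 with the replicate block and that correction together. With each liver left out in turn, lower genes ran from 1767 (without Hom replicate 3; 1829 without Hom replicate 2) to 2750, higher genes from 1986 to 3057, the isotype median from 0.087 to 0.29, the difference in the Tubb4b share from −2.78 to 2.63 percentage points and the Tubb5 log2 fold change from −0.12 to 0.19, while 3 isotypes stayed higher and 3 lower. From estimated counts in place of TPM, the Tubb4b share differed by −1.23 points. Same-numbered livers are different mice, and their deviations correlated at −0.11, −0.06 and −0.05, so the numbers do not pair them. With the replicate block, 2214 genes were lower and 2383 higher, and the same 6 isotypes were called. The cause of these changes was not tested.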

Other observations

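Some enzymes that modify tubulin were read only a few times in WT livers. These were chosen after their values were seen. Agbl2, a deglutamylase, had 1, 0 and 0 counts in WT replicates 1 to 3 and 19, 18 and 26 in Hom replicates 1 to 3. Ttll6, a glutamylase, had 0, 0 and 2 counts against 22, 19 and 13, and Ttll10, a glycylase, had 1, 2 and 0 against 18, 37 and 41. They had enough counts for the filter in the Hom group alone, so no fold change or p is given for them. Kifap3, a further subunit gene of kinesin-2, also chosen after its values were seen, was at 5.03, 5.45 and 6.02 TMM-scaled CPM in WT livers and at 8.54, 8.49 and 10.6 in Hom livers. Its log2FC (Hom against WT) was 0.74 (SE 0.15, adjusted p = 0.00920). Kif3a, Kif3b and Kifap3 were thus each higher, and other kinesin-2 genes were not in the lists.

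Within the actins, chosen after their values were seen, Actg1 (cytoplasmic γ-actin) was at 165, 160 and 148 TMM-scaled CPM in WT livers and at 654, 406 and 383 in Hom livers, a log2FC of 1.61 (SE 0.22, adjusted p = 0.00194). Actb (β-actin) was at 717, 571 and 600 CPM in WT livers and at 711, 721 and 686 in Hom livers, which overlapped, with 0.17 (SE 0.13, adjusted p = 0.333).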
